A study of Mus musculus with 20 samples.

Results

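Eph receptors are receptor tyrosine kinases at the cell surface, and the ephrins that bind them sit on neighbouring cells. The 10 genes described here are the receptors Epha4, Epha5, Epha6, Epha7, Ephb1, Ephb2, Ephb3 and Ephb6 and the ephrin-B ligands Efnb2 and Efnb3, out of 18054 genes in the count table. They were chosen by measured values, the lower Ephb6 of knockout females in footprints and input RNA, so that the genes related to it could be set beside it. All 10 passed the filter on low counts in both assays. The filter needs adequate counts in as many libraries as the smallest group holds.

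Ephrin-B ligands span the membrane and ephrin-A ligands are held by a lipid anchor, and contact between cells starts signalling in both directions. In the hippocampus the system is known for axon guidance, for the shaping of dendritic spines and for synaptic plasticity. Ephb6 has a kinase domain that lacks catalytic activity.

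The tissue was hippocampus of Qtrt1-/- and wild-type mice of both sexes. Qtrt1 codes for the catalytic member of the enzyme pair that inserts queuosine into the anticodons of tRNAs for asparagine, aspartate, histidine and tyrosine. Each of 10 animals gave a ribosome footprint library, the mRNA fragments that ribosomes shield from nuclease, and an input library of cytoplasmic RNA from the same lysate. There were 3 wild-type and 3 knockout females, aged 6 months and 21 or 22 days, and 2 wild-type and 2 knockout males, aged 6 months 18 days or 5 months 16 days. Sex and age can therefore not be told apart. The strain and the design of the Qtrt1 allele were not given in the sources used here.

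Total counts ran from 5357812 to 15517982 in footprint libraries and from 9000662 to 13637370 in input libraries. Qtrt1 had 1 to 10 counts in knockout and 28 to 94 in wild-type footprint libraries, and 24 to 29 against 66 to 88 in input libraries. Hippocampal marker lists were present in every library. Markers of neighbouring tissue were not even: the summed level of 15 striatum markers, all detected, ran from 635.5 to 1539 CPM (counts scaled to library size) in footprints of wild-type females, 309.4 to 845.4 in knockout females, 280.3 to 356.8 in wild-type males and 302.5 to 343.6 in knockout males. The summed level of 13 choroid plexus markers ran from 153.5 to 6051 CPM across wild-type females and from 2237 to 9458 in knockout females. In bulk tissue, fewer cells of a type and less RNA per cell cannot be told apart.

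Ephb6 was lower in knockout females than in wild-type females in both assays, and Ephb3 was lower beside it. Footprints of Ephb6 (ENSMUSG00000029869, GRCm38 chromosome 6, plus strand) stood at 117.3, 92.5 and 119.1 CPM across wild-type females and at 49.9, 47.4 and 48.3 CPM in knockout females. Every knockout female was below every wild-type female. The fitted log2 difference was -1.18 ± 0.13 (SE, n = 3 and 3), 0.441 of the wild-type level. Ephb6 input RNA stood at 211.7, 163.3 and 229.2 CPM across wild-type females and at 111.7, 119.8 and 119.8 CPM in knockout females. Its log2 difference was -0.78 ± 0.12, again with no overlap. These values chose the genes, so they are a description without a test.

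Ephb3, a receptor of ephrin-B ligands, had the other large fall. Its footprints were 27.6, 30.3 and 37.2 CPM across wild-type females and 16.9, 15.9 and 19.3 CPM in knockout females, a log2 difference of -0.87 ± 0.15. Its input RNA was 23.7, 26.7 and 29.3 CPM against 21.0, 18.2 and 17.6 CPM, a log2 difference of -0.49 ± 0.12. The groups did not overlap in either assay.

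The EphB receptors with an active kinase other than Ephb3 differed less. Ephb2, which binds ephrin-B ligands and acts at excitatory synapses, had footprints of 39.8, 42.7 and 46.7 CPM across wild-type females and 34.2, 28.2 and 37.4 CPM in knockout females. Its log2 difference was -0.37 ± 0.14 in footprints, without overlap, and -0.13 ± 0.09 in input RNA, with overlap. Ephb1, another receptor of ephrin-B ligands, showed the reverse arrangement, with a log2 difference of -0.44 ± 0.12 in input RNA, without overlap, and -0.16 ± 0.16 in footprints, with overlap.

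The EphA receptors among the members did not share the low values of Ephb6. Epha5 footprints were 242.0, 258.5 and 196.3 CPM across wild-type females and 331.2, 310.4 and 287.5 CPM in knockout females, a log2 difference of 0.41 ± 0.12. Epha6 had log2 differences of 0.45 ± 0.18 in footprints and 0.48 ± 0.18 in input RNA, and in both assays wild-type female 2 was close to the knockout level while the other wild-type females were lower. Epha7 had 0.22 ± 0.14 and 0.16 ± 0.11. Epha4, which binds ephrins of both classes and was the most abundant member, had -0.08 ± 0.10 and -0.03 ± 0.09.

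Among the ligands, Efnb2 lay close to 0 in both assays, with -0.01 ± 0.13 in footprints and 0.07 ± 0.10 in input RNA. Efnb3 had input RNA of 72.5, 78.5 and 73.2 CPM across wild-type females and 90.0, 96.7 and 88.2 CPM in knockout females. The knockout libraries were all higher, by a log2 difference of 0.29 ± 0.07. Efnb3 footprints overlapped between the groups, at 0.09 ± 0.18.

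**Figure D1:**
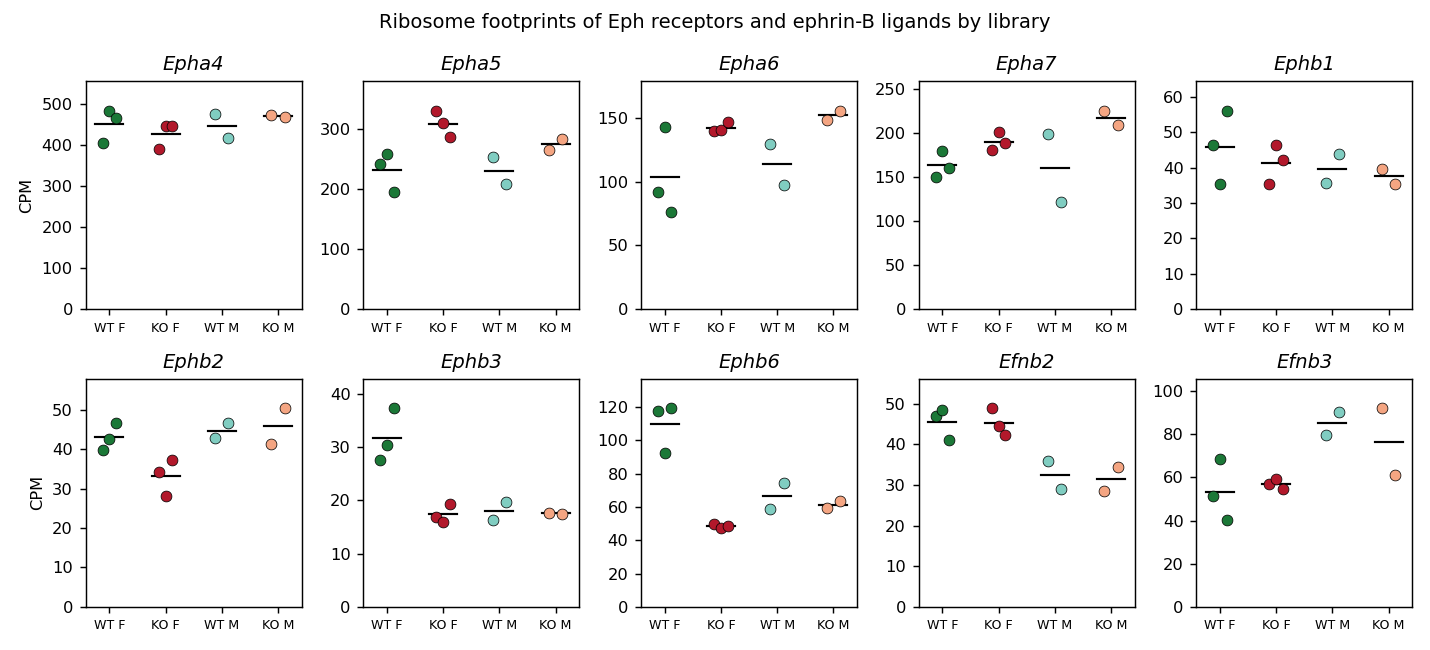
Footprint level in CPM of each of the 10 genes by library, with 1 panel per gene; points are animals and bars group means, for wild-type (WT) and knockout (KO) females (F) and males (M). Ephb6 and Ephb3 are high in wild-type females alone among the 4 groups, with Ephb6 between 92.5 and 119.1 CPM there.

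**Figure D2:**
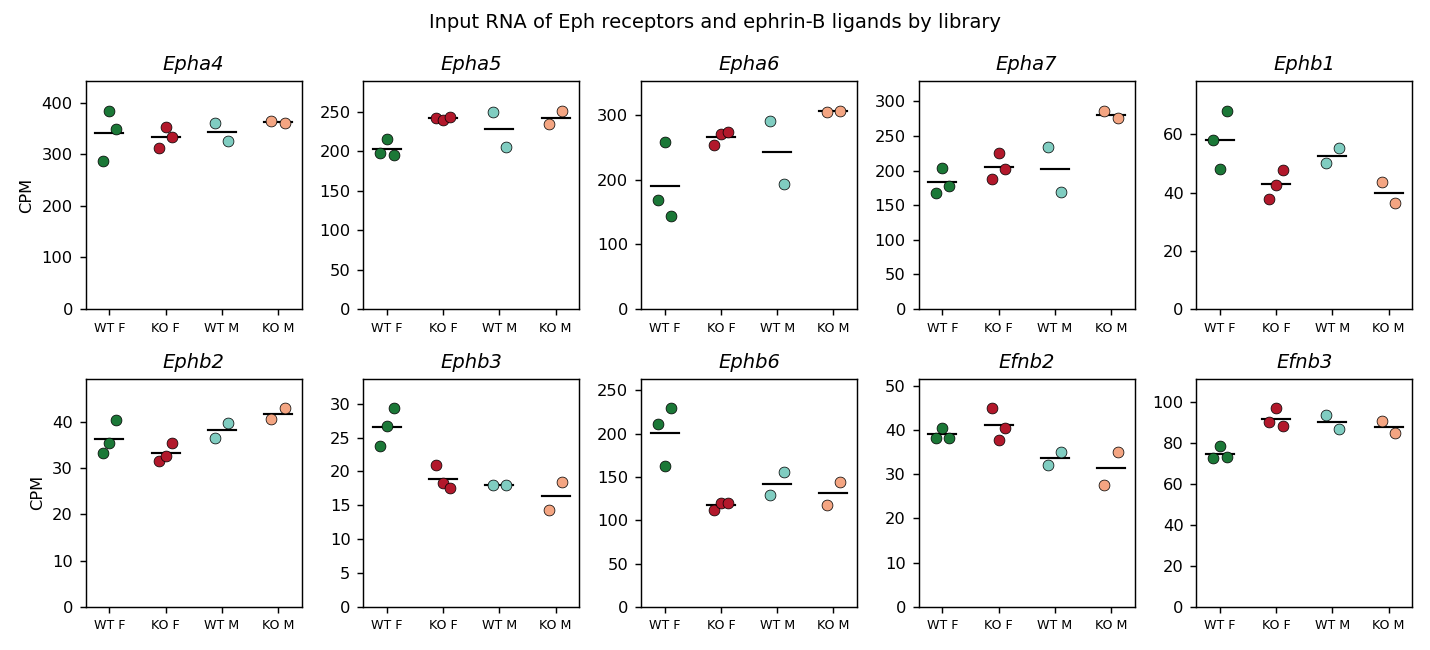
Input RNA level in CPM of each of the 10 genes by library, drawn as for footprints. Ephb6 runs from 163.3 to 229.2 CPM across wild-type females and from 111.7 to 155.5 CPM in all other groups.

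A gene was called at an adjusted p under 0.05 in edgeR's quasi-likelihood test over all genes. In female footprints 3 of the 10 members were called, Ephb6 and Ephb3 lower and Epha5 higher, where 7.06% of 13143 genes were. In female input RNA 3 were called, Ephb6 and Ephb3 lower and Efnb3 higher, where 3.48% of 14164 genes were. Nothing is read from these counts, since the same contrast chose the members. With each of the 10 animals left out in turn, Ephb6 was called in footprints in all 10 fits, and in input RNA in 9, not without knockout female 1. The fits that leave out a male keep every female library. As the female contrast chose Ephb6, its calls in these fits are a description too. Without knockout female 1 Ephb3 was not called in footprints either, and the count over all genes fell from 928 to 37. Epha5 in footprints and Ephb3 and Efnb3 in input RNA were each called in 3 of the 10 fits. Without wild-type female 2 Epha6 was called in both assays and Epha5 in input RNA, higher in knockouts, and Ephb1 in input RNA, lower. Libraries did not overlap for 3 members that were lower in footprints (17.8% of all genes) and 2 that were higher (17.2%), and for 3 lower in input RNA (13.3%) and 2 higher (11.8%). The median log2 difference of the 10 members was -0.05 in footprints and 0.02 in input RNA, beside 0.00 and 0.01 over all genes tested.

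In both assays, striatum markers were high in the wild-type females with the most Ephb6. On the log2 CPM scale, the mean of these markers over footprints was 5.87, 4.59 and 5.73 for wild-type females 1 to 3, whose Ephb6 is given above in the same order. It was 3.85, 4.99 and 3.43 in knockout females 1 to 3, whose Ephb6 footprints all lay within 47.4 to 49.9 CPM. In input RNA the marker mean was 5.685, 4.436 and 5.504 for wild-type females 1 to 3, with Ephb6 lowest in wild-type female 2. It was 3.80, 4.98 and 3.23 in knockout females 1 to 3, with Ephb6 lowest in knockout female 1. Knockout female 2 had a higher marker mean than wild-type female 2, and their Ephb6 footprints were 47.4 and 92.5 CPM. With wild-type females 1 and 3 and knockout female 2 left out, the log2 difference of Ephb6 was -0.91 ± 0.20 in footprints and -0.50 ± 0.14 in input RNA. That fit has 1 wild-type female and assumes that it varies like the other groups. With the striatum and choroid plexus means as covariates the values were -1.05 ± 0.27 and -0.68 ± 0.22. In either fit no member was called, and at most 1 gene in footprints and 7 in input RNA were called over all genes. The striatum means overlapped between the female groups. Of 13 marker lists, 4 had footprint means that did not overlap between them. Cortex and subiculum markers were at 5.01 to 5.19 log2 CPM in knockout and 5.26 to 5.68 in wild-type females, and interneuron markers at 6.66 to 6.74 against 6.79 to 7.09. Dentate gyrus markers were at 4.37 to 4.44 in knockout and 3.70 to 4.34 in wild-type females, and astrocyte markers at 8.84 to 8.90 against 8.71 to 8.78. In input RNA the cortex and subiculum means again did not overlap, at 5.28 to 5.48 in knockout and 5.62 to 6.05 in wild-type females. The input means of interneuron, dentate gyrus and astrocyte markers overlapped. The part of striatum markers and of these other lists in the result was not tested.

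**Figure D3:**
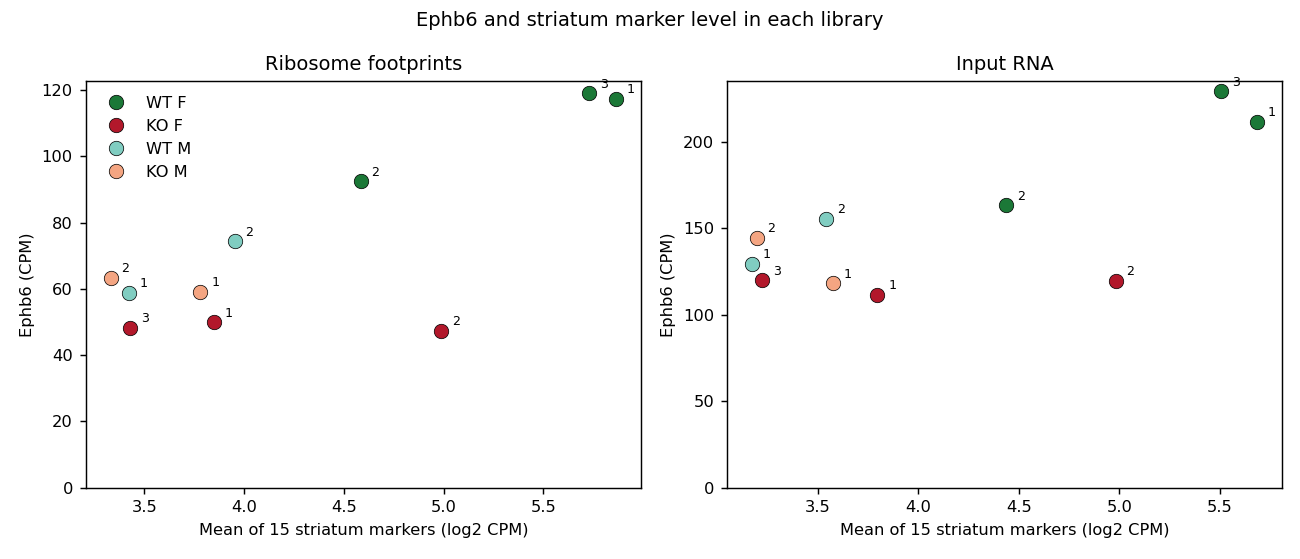
Ephb6 level in CPM (vertical axis) against the mean of 15 striatum markers in log2 CPM (horizontal axis) for each library, with the animal's number beside each point. Wild-type females 1 and 3 are highest on both axes. Knockout female 2 has a marker mean of 4.99 and Ephb6 at 47.4 CPM in footprints, and 4.98 and 119.8 CPM in input RNA.

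Males carry the test of what the choice of genes did not use. Their tissue was not even either. Wild-type male 2 had a mean of thalamus markers of 4.27 log2 CPM in footprints, against 3.00 to 3.36 in the other males. Its mean of dentate gyrus markers was 3.70, against 4.36 to 4.75. The part of these markers in the male differences was not tested. Ephb6 footprints were 58.9 and 74.4 CPM in wild-type males and 59.2 and 63.4 CPM in knockout males. The groups overlapped, and the log2 difference was -0.12 ± 0.15 (95% interval -0.45 to 0.21; edgeR adjusted p = 0.963). Ephb6 input RNA was 129.4 and 155.5 CPM against 118.2 and 144.4 CPM, a log2 difference of -0.12 ± 0.15 (95% interval -0.44 to 0.20; edgeR adjusted p = 0.845). Both intervals include 0.

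Ephb3 in males had log2 differences of -0.03 ± 0.19 in footprints and -0.14 ± 0.15 in input RNA. Epha7 had the largest male differences, with Epha6 close to it in footprints at 0.41 ± 0.22. Epha7 footprints were 198.6 and 121.1 CPM in wild-type males and 225.2 and 209.2 CPM in knockout males, and Epha7 input RNA was 234.7 and 168.8 against 286.5 and 275.5 CPM. The log2 differences were 0.43 ± 0.18 and 0.48 ± 0.14, with edgeR adjusted p of 0.963 and 0.475. Knockout males were above both wild-type males, whose own values lay far apart. Without wild-type male 1 the Epha7 differences were 0.83 and 0.74, and without wild-type male 2 they were 0.14 and 0.25. Ephb1 input RNA was 50.0 and 55.4 CPM against 43.5 and 36.4 CPM, a log2 difference of -0.40 ± 0.16 (edgeR adjusted p = 0.531), close to the female value of -0.44.

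Male 1 of each genotype shared an age, as did male 2. With that number as a block the Ephb6 differences were -0.12 ± 0.15 and -0.12 ± 0.12, and again no gene was called.

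None of the 10 members was called in males, and none of all genes was, in footprints (0%) or in input RNA (0%) with edgeR. At an unadjusted p under 0.05 there were 562 genes in footprints and 1246 in input RNA, among them Epha7 in both and Ephb1 in input RNA. DESeq2 called 1 and 3 genes. Male libraries did not overlap for 3 members higher in footprints (13.4% of all genes) and none lower (13.2%), and for 3 higher in input RNA (19.4%) and 1 lower (18.5%). In simulated footprint counts, a 2-fold change was called for 55.1% of changed genes in males and 70.7% in females, and in simulated input counts for 71% and 83%. A change of 1.5-fold was called for 3.52% of changed genes in male footprints.

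**Figure D4:**
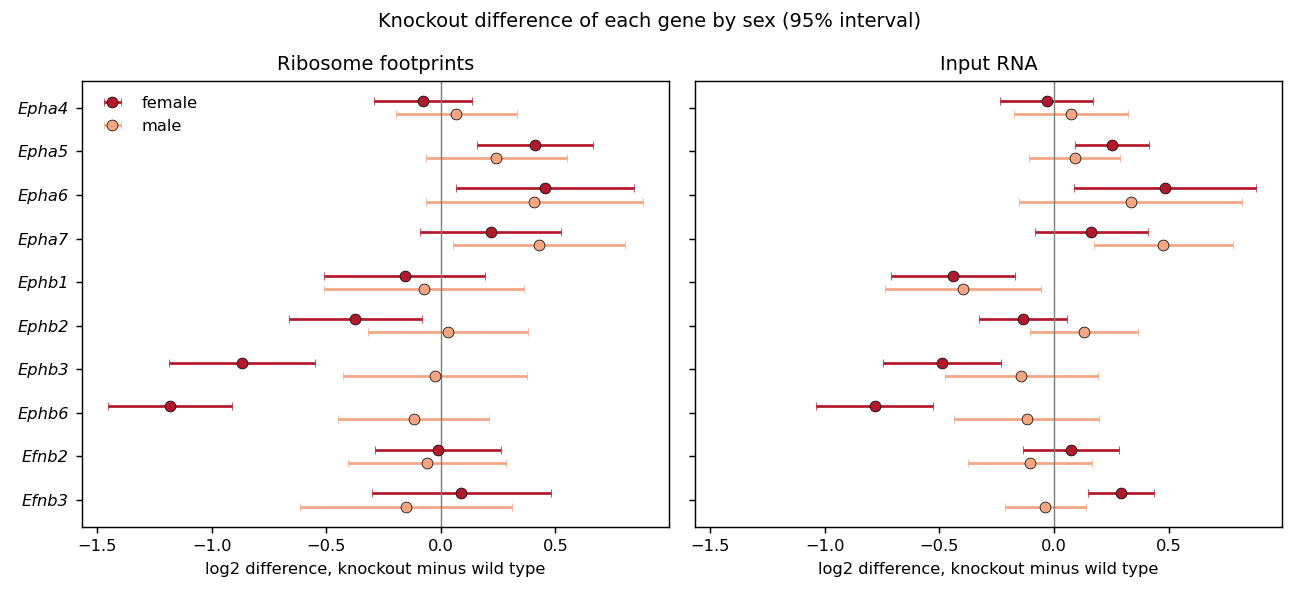
Log2 difference of knockout from wild type (horizontal axis) for each gene, with 95% intervals from the edgeR fit, in females and males, for footprints and input RNA. The male intervals of Ephb6 include 0 in both assays, at -0.45 to 0.21 in footprints and -0.44 to 0.20 in input RNA; the female values chose the genes.

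The female difference of Ephb6 minus the male one was -1.06 ± 0.20 in footprints and -0.66 ± 0.19 in input RNA. This contrast holds the female values that chose the genes and is given as a description. With edgeR no gene was called for a difference between the sexes, Ephb6 included, in footprints (0%; 1109 genes at an unadjusted p under 0.05) or input RNA (0%; 1339 genes). DESeq2 called 24 and 41 genes, with Ephb6 among them in both assays. For Ephb3 the difference between the sexes was -0.84 ± 0.24 and -0.35 ± 0.19.

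Ephb6 footprints of wild-type females, at 92.5 to 119.1 CPM, lay above every male library, at 58.9 to 74.4 CPM, and those of knockout females, at 47.4 to 49.9 CPM, lay below them. Wild-type females had more Ephb6 than wild-type males, by log2 differences of 0.72 ± 0.14 in footprints and 0.50 ± 0.13 in input RNA, and more Ephb3, by 0.83 ± 0.17 and 0.56 ± 0.14. Knockout females differed from knockout males by -0.34 ± 0.14 and -0.17 ± 0.13 for Ephb6, and by -0.01 ± 0.17 and 0.21 ± 0.14 for Ephb3. Efnb2 was higher in females of both genotypes, by 0.47 ± 0.15 in wild-type and 0.52 ± 0.15 in knockout footprints. Efnb3 was lower in females of both genotypes in footprints, by log2 differences of -0.67 ± 0.20 and -0.43 ± 0.20. The wild-type female libraries are those of the contrast that chose the genes, so these too are descriptions. Between wild-type sexes 4 members were called in footprints, where 16.5% of genes were, and 3 in input RNA, where 14.2% were. With wild-type females 1 and 3 and knockout female 2 left out, the Ephb6 differences between wild-type sexes were 0.48 ± 0.20 and 0.20 ± 0.14. That fit has 1 wild-type female.

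Per kilobase of the longest coding sequence, Epha4 had the highest footprint level in wild-type females, at 152 ± 14.1 CPM per kilobase (SD, n = 3). Epha5 followed at 74.4 ± 10.3, without overlap. Epha7 at 54.5 ± 5.06, Efnb3 at 52.4 ± 14.0 and Efnb2 at 45.1 ± 3.80 followed, each overlapping its neighbour. Ephb6 stood sixth at 36.0 ± 4.90, overlapping Epha6 at 30.7 ± 10.3. Ephb1 at 15.5 ± 3.51 overlapped Ephb2 at 14.5 ± 1.16, and Ephb3 was lowest at 10.6 ± 1.67. In knockout females Ephb6 stood at 16.0 ± 0.417 and overlapped Ephb1 at 14.0 ± 1.87, below Epha6 at 42.0 ± 1.12. In wild-type males Ephb6 stood at 21.9 ± 3.61 (SD, n = 2), between Efnb2 at 32.1 ± 4.86 and Ephb2 at 15.1 ± 0.898.

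Translational efficiency is the footprint level relative to input RNA, here as log2 of the ratio of CPM in 1 animal. For Ephb6 it was -0.85, -0.82 and -0.94 for the wild-type females and -1.15, -1.33 and -1.30 for the knockout females. All knockout females were lower, by a fitted log2 difference of -0.38 ± 0.18. It was -1.13 and -1.06 in wild-type males and -0.99 and -1.18 in knockout males, which overlapped, at 0.02 ± 0.22 (95% interval -0.43 to 0.48; edgeR adjusted p = 1). Ephb3 had a female difference of -0.36 ± 0.19 and a male one of 0.13 ± 0.24. These fits treat the footprint and input library of an animal as independent, so their errors and intervals are not those of a paired fit. In wild-type animals Ephb6 and Epha6 had the lowest efficiency among the 10 members, at -0.96 ± 0.13 and -0.95 ± 0.13 (SD, n = 5), and Epha4 the highest at 0.40 ± 0.06.

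No member was called for translational efficiency in females, where 0.0424% of 14146 genes were. With the animal as a block, which pairs the footprint and input library of the same lysate, 1 member was called, Ephb6 at -0.38 ± 0.10, where 2.79% of genes were. The female contrast chose the genes, and nothing is read from these counts. In males no gene was called by edgeR (0%), with 367 genes at an unadjusted p under 0.05.

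Footprints were counted by codon for single transcripts. The deposited codon tables held 3276 footprints on Ephb6 (ENSMUST00000114732), 5229 on Epha6, 5218 on Efnb3 and 925 on Efnb2, and under 100 on every transcript of the other members. They hold only part of the footprints counted per gene. Epha4 had a mean of 451 CPM in wild-type females in the gene counts, and 2 footprints in the codon tables of all libraries. Shares, coverage and levels by codon are those of the listed footprints. The 4 codons of Ephb6 that took the largest share of listed footprints in wild-type libraries are shown because they are where these were densest. Capitals mark the listed codon and the codon 1 upstream of it. All lie on the plus strand of chromosome 6 in coding exons, with coordinates from a match of the transcript to GENCODE M21 on GRCm38:
Ephb6 codon 743, exon 13, chr6:41618265-41618294: atggtgctgacaGAACTCatggaacttggt
Ephb6 codon 916, exon 16, chr6:41619751-41619780: atgattcgcaagCCTGATactctccaggct
Ephb6 codon 858, exon 15, chr6:41619351-41619380: cggccctactggGACATGaacgagcaggag
Ephb6 codon 262, exon 5, chr6:41614679-41614708: tgtgtagctcatGCAGAAccagaggaggat

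At codon 743, 24.2%, 16.9% and 14.3% of Ephb6 footprints fell for knockout females, against 7.00%, 6.23% and 7.68% for wild-type females. The Wilson 95% intervals, which cover counting error only, were 10.6% to 19.1% for the lowest knockout female and 5.64% to 10.4% for the highest wild-type female. Wild-type males had 10.4% and 7.52% and knockout males 6.77% and 13.5%, which overlapped. Scaled to library size as CPM, codon 743 held 7.79, 5.31 and 4.27 in knockout females and 4.90, 3.15 and 5.42 across the wild-type females, which overlapped. All other codons of Ephb6 together held 24.5, 26.2 and 25.5 CPM against 65.1, 47.5 and 65.2. Codon 858 went the other way, with 3.77%, 2.06% and 3.40% of Ephb6 footprints for knockout females and 8.10%, 7.27% and 5.45% for wild-type females, without overlap, and overlapping shares in males. At codon 916 the shares were 3.40%, 4.12% and 4.91% against 4.595%, 8.30% and 8.48%, and at codon 262 they were 7.92%, 5.35% and 4.53% against 5.47%, 3.81% and 3.23%. The groups overlapped at both. The codons were picked by their share in wild-type libraries, which favours lower shares in knockouts, and the female contrast chose Ephb6. How often codons of other mRNAs separate the female groups was not counted, so nothing is read from the lack of overlap.

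Along Ephb6, the fall in knockout females was present in each of 4 equal stretches of the coding sequence. The log2 ratio of group means was -1.19 over codons 1 to 254, -1.05 over codons 255 to 507, -0.68 over codons 508 to 760, which hold codon 743, and -1.43 over codons 761 to 1014. In males the corresponding values were -0.18, 0.04, -0.01 and -0.12. Footprints covered 7.00% to 14.1% of the codons of Ephb6 per library, so single codons weigh heavily in these stretches.

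**Figure D5:**
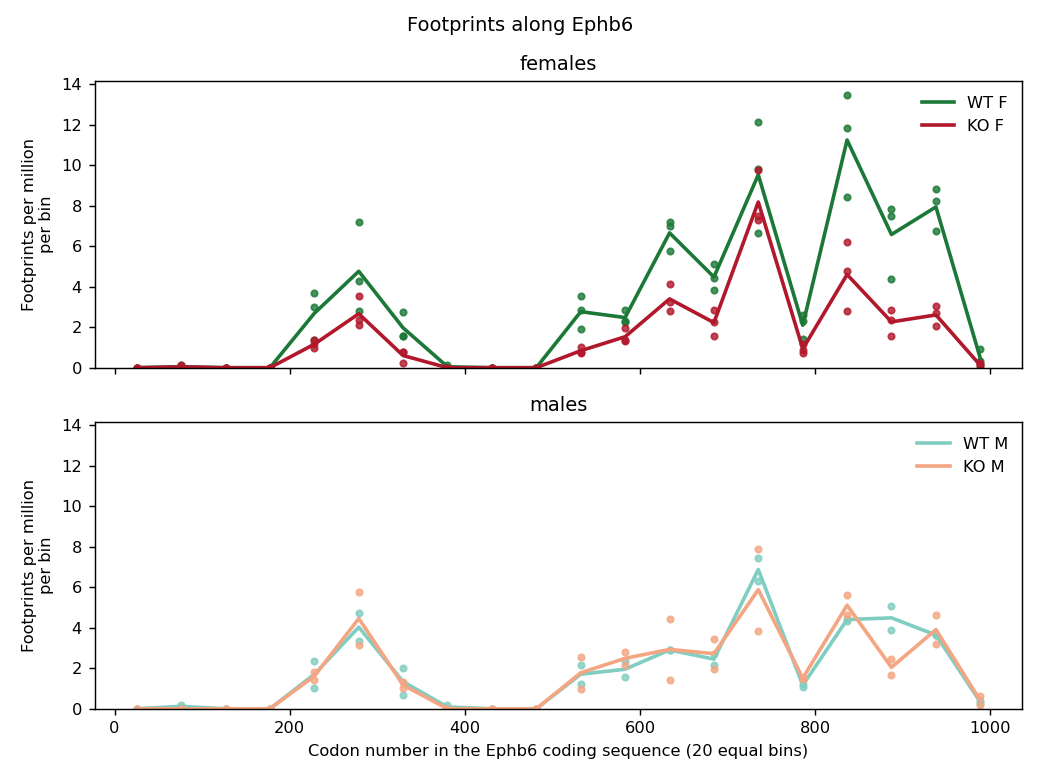
Footprint CPM in 20 equal bins along the Ephb6 coding sequence (horizontal axis, codon number), with lines for group means and points for animals. Knockout females lie below wild-type females on average in the bins with signal, least so in the bin with codon 743, while the male lines run close together.

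The remaining well covered members are shown at the codons with the largest share of wild-type footprints, both on the minus strand and with sequences written along the mRNA:
Efnb3 codon 63, exon 2, chr11:69557414-69557443: ctagatctacttTGTCCCcgggctcggcct
Epha6 codon 992, exon 16, chr16:59666695-59666724: taccgacttcctGCTCCGatgggctgccca
At codon 63 of Efnb3 the share was 30.8%, 33.8% and 28.5% for knockout females and 20.3%, 26.7% and 20.5% for wild-type females, without overlap. It was 30.8% and 30.4% for knockout males and 25.8% and 31.6% for wild-type males, which overlapped. As for Ephb6, nothing is read from the lack of overlap in females. At codon 992 of Epha6 the mean share was 6.19% in wild-type and 5.75% in knockout libraries. On Efnb3 60.0% of footprints in wild-type females and 60.3% in knockout females fell in codons 1 to 85. The codon tables listed no footprint on codons 1 to 282 of the Epha6 transcript in any library.

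Queuosine tRNAs read codons of the form NAC and NAT. These make up 11.045% of the codons of Ephb6, the lowest share among the 10 members, which ran up to 16.7% in Efnb2. The share of Ephb6 footprints whose codon 1 upstream of the listed one is a queuosine codon was 15.1%, 14.9% and 12.3% for wild-type females, against 15.5%, 9.05% and 12.5% for knockout females. It was 12.04% and 11.1% in wild-type males and 12.4% and 8.26% in knockout males. The ranges overlapped in both sexes. Over all matched mRNAs this upstream share was 20.4% to 22.8% in wild-type and 21.4% to 22.9% in knockout libraries, which overlapped. At the listed codon itself the share over all matched mRNAs was 16.7% to 18.1% in wild-type and 18.3% to 19.2% in knockout libraries, without overlap. The log2 odds that follow are for the upstream codon. In males the log2 odds differed by -0.20 ± 0.31 for Ephb6 (limma adjusted p = 0.909), by 0.11 ± 0.25 for Efnb3 and by -0.08 ± 0.23 for Epha6. In females, as a description, Ephb6 had -0.24 ± 0.25, Efnb3 -0.02 ± 0.20 and Epha6 0.26 ± 0.19. No member was called in either sex, where 1.4% of 1997 mRNAs were called in females and 0% in males, with 136 at an unadjusted p under 0.05 in males. Efnb2 had too few footprints for this test.

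Of 12 other Eph and ephrin genes 10 passed the filter on counts. This list and that of the signalling genes below were drawn up with earlier results of these data known, so their adjusted p values are descriptive. Footprint levels of the 12 in wild-type females ran from 0.065 CPM per coding kilobase for Epha1 to 50.1 for Epha10, with Efna3 next at 49.8. The value of Epha10 rests on a short coding sequence of 876 bases, against 2931 to 3390 for the other Eph receptors. None was called in female footprints, where 6 had an unadjusted p under 0.05 in edgeR, beside 3367 of all 13143 genes. Footprints of knockout females were all lower for Epha8, Epha10 and Efna5 (17.8% of all genes). They were all higher for Epha3, Efna1, Efna2 and Efna3 (17.2%). In female input RNA Epha3, a receptor of ephrin-A ligands, was higher in knockouts by a log2 difference of 0.61 ± 0.14 (edgeR adjusted p = 0.0406), and the ligand Efna5 was lower, at -1.09 ± 0.27 (edgeR adjusted p = 0.0474). Without the females with high striatum markers 1 wild-type female remains, so that fit cannot show whether these differences hold.

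Of 51 genes of Eph and ephrin signalling, all tested, 5 were called in female footprints, 4 lower and 1 higher, where 7.06% of all genes were. Leaving out 1 animal at a time gave 0 to 10. Ngef, the exchange factor ephexin, was lower by a log2 difference of -0.93 ± 0.15 (edgeR adjusted p = 0.0093), and Kalrn, the exchange factor kalirin of dendritic spines, by -0.41 ± 0.10. The PDZ proteins Pick1 and Grip2 were lower, at -1.01 ± 0.20 and -0.98 ± 0.20. Fyn, a Src-family kinase, was higher, at 0.32 ± 0.09 (edgeR adjusted p = 0.0480). The median over the 51 was 0.07, beside 0.00 over all genes.

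In female input RNA 3 of the 51 were called, where 3.48% of all genes were, and leaving out 1 animal at a time gave 0 to 6. Ngef was lower at -0.82 ± 0.15 and the kinase Rock2 at -0.26 ± 0.06, and the PDZ protein Sdcbp was higher at 0.22 ± 0.05. No gene of this list was called in males in either assay by edgeR, with 3 at an unadjusted p under 0.05 in footprints and 7 in input RNA. Without the females with high striatum markers 1 wild-type female remains, so that fit cannot show whether the calls of this list hold. These calls and those of Ephb6 come from the same libraries, and the part of the striatum marker level in them was not tested.

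Between wild-type females and males 11 of the 51 were called in footprints, 8 higher in females and 3 lower, and 9 in input RNA, 8 higher and 1 lower, where 16.5% and 14.2% of all genes were. Leaving out 1 animal at a time gave 6 to 13 and 5 to 11. Ngef was higher in females in both, by 1.00 ± 0.17 and 1.00 ± 0.18, as was Rock2, by 0.90 ± 0.18 and 0.40 ± 0.07. Sipa1l1, a regulator of Rap at spines, was higher by 0.87 ± 0.18 and 0.60 ± 0.10. Cfl1, the actin-severing cofilin, was lower in female footprints, at -0.60 ± 0.11. Without the females with high striatum markers 1 wild-type female remains, so that fit cannot show whether these differences hold.

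The genes whose footprint pattern over the 10 libraries lay closest to that of Ephb6 were Ptgfrn, Flrt1, Kcnk3, Plekha6 and Adra1a. Likeness was the root-mean-square difference of log2 CPM after each gene was centred on its mean, and it ran from 0.101 to 0.159 for these 5. Ephb3 was number 19 of 13142 genes at 0.208, Ephb2 number 1526 and Epha6 number 11848. Between Ephb3 and Ephb2 came Efna5 at number 507, Epha8 at 525, Epha10 at 941 and Efnb1 at 1417, which are not members. The pattern of Ephb6 holds the female values that chose the genes, so ranks in either assay are a description. In input RNA the closest were Kcnh7, Garnl3, Efhd2, Stac2 and Arpp19, at 0.086 to 0.102, and Ephb1 was number 252 and Ephb3 number 329 of 14163.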

How the data were processed

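The members and gene lists were chosen with earlier results of these data known. The authors deposited raw counts per gene symbol for 20 libraries. Their codon tables give, per the file headers, counts of footprints per codon, the single-codon occupancy as a ratio and the covered share of the coding sequence as a percent. The submitters' processing notes name Bowtie 1.0.0 and 1.2.2, SAMtools 0.1.19, Trimmomatic 0.39 and cutadapt 1.8.1; the build and the counting program were not given in the sources used here. Listed codon positions matched GENCODE M21 at every codon for 10963 of 11113 mRNAs.

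Tests used edgeR 4.0.16 (TMM, filterByExpr, quasi-likelihood F test, Benjamini-Hochberg over all genes), with DESeq2 as an alternative, and limma 3.58.1 for log2 odds of queuosine codons (at least 50 footprints in every library, offset 0.5). Translational efficiency was the assay-by-genotype interaction; ratios per animal used log2 with 0.5 CPM added. Levels are CPM on TMM-scaled libraries. Labels name separate animals. Replicate pairs gave a chi-square of 3.55 to 15.0 per degree of freedom, where counting error alone gives about 1, so none was treated as a duplicate. Footprint and input libraries were paired by the animal number in the labels. Scripts were tested on simulated data with 200 changed genes. Named genes were all members, the called genes of 2 lists (at most 8 per comparison by size), and the 5 nearest to Ephb6; a subset of those called between wild-type sexes is named. Codon-enrichment tables were not used here.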

Additional observations from a re-analysis of the deposited data

How the results depend on the processing

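Leaving out the females with high striatum markers (wild-type 1 and 3, knockout 2) moved Ephb6 to -0.91 in female footprints, -0.50 in female input, 0.48 and 0.20 between wild-type sexes, and -0.80 and -0.38 for the sex difference. It left 0 members called in each of the 4 female and wild-type comparisons, and 1 and 7 genes in all in females, 264 and 714 between wild-type sexes and 0 for female translational efficiency. With marker covariates 0 members and 1 and 0 genes in all were called in females. Fits with 1 animal in a group assume that it varies like the others. Without wild-type females 1 and 2 together 120 genes were called in female footprints, 333 and 853 between wild-type sexes, 2 and 14 for the sex difference and 0 for female translational efficiency, where Ephb6 moved to -0.30. With the replicate block 308 and 324 genes were called in female footprints and input, against 928 and 493. Same-numbered animals of the 2 genotypes correlated at -0.21 to 0.09. Same-numbered males share an age, and with 2 per genotype the correlation cannot show whether they pair. With the animal as replicate block 394 genes and 1 member were called for female and 1 gene for male translational efficiency. DESeq2 called 136 genes for female translational efficiency, 1 and 3 in male footprints and input, and 24 and 41 with 1 member each for the sex difference. Without the filter on low counts there was 1 gene in male footprints, 23 genes and 1 member for the footprint sex difference and 1 gene for input. At the listed codon itself the male queuosine log2 odds turned to 0.026 for Ephb6 and 0.143 for Epha6. The cause of these changes was not tested.

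Leaving out 1 animal at a time gave 37 (without knockout female 1) to 1545 genes and 1 to 4 members in female footprints, 4 to 1030 genes and 0 to 6 members in female input, and 0 to 21 genes for female translational efficiency. Ephb6 stayed at -1.29 to -1.12 in female footprints and -0.91 to -0.68 in female input. Between wild-type sexes there were 954 to 2106 genes and 2 to 4 members in footprints, and 1030 to 1937 genes and 0 to 4 members in input. For the sex difference there were 0 to 10 genes and 0 to 1 members in footprints, with Ephb6 from -1.24 to -0.89, and 0 to 40 genes and 0 to 1 members in input. The highest counts came without wild-type male 2 in female footprints, and without wild-type female 2 in female input and for the sex difference. Male input had 0 to 15 genes and male translational efficiency 0 to 1. The male difference changed sign for 7 of 10 members in footprints, 6 in input and 7 in translational efficiency. In male footprints the ranges were -0.29 to 0.063 for Ephb6, -0.17 to 0.10 for Ephb3, -0.11 to 0.18 for Ephb2, -0.23 to 0.088 for Ephb1, -0.0083 to 0.16 for Epha4, -0.20 to 0.11 for Efnb2 and -0.47 to 0.11 for Efnb3. In male input they were -0.27 to 0.017 for Ephb6, -0.34 to 0.034 for Ephb3, -0.0039 to 0.16 for Epha4, -0.048 to 0.24 for Epha5, -0.28 to 0.057 for Efnb2 and -0.096 to 0.018 for Efnb3. In male translational efficiency they were -0.056 to 0.11 for Ephb6, -0.040 to 0.32 for Ephb3, -0.20 to 0.029 for Ephb2, -0.0097 to 0.040 for Epha4, -0.12 to 0.13 for Epha7, -0.14 to 0.31 for Efnb2 and -0.37 to 0.11 for Efnb3. The male queuosine log2 odds ran from -0.52 to 0.12 for Ephb6, -0.36 to 0.21 for Epha6 and -0.046 to 0.26 for Efnb3. Alternatives for the sex difference and for the signalling and other Eph genes were added after seeing the data. The signalling list had 0 to 10 genes called in female footprints and 0 to 6 in female input.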
